A study of Tupaia belangeri with 15 samples.

Results

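The collagen chains of the tree shrew (*Tupaia belangeri*, TS) retina were examined by single-nucleus RNA sequencing (snRNA-seq). The members were all features whose symbol is COL, digits, A and digits and nothing else, which gave 45 of the 83605 features. The 92 antisense features and the 8 numbered copies of a collagen symbol were left out. The data were 15 retinas, 5 each from Infancy, Mature and Senile TSs, without a named genotype, strain or treatment. The infant and mature animals had the same source and the senile animals another, so in both comparisons with Senile, stage and source of the animals cannot be told apart. As the study describes them, the samples came from 15 animals, and p-values measure the spread between them.

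Collagens are built from α chains that wind around each other into a triple helix, and each chain type is coded by its own gene. Fibrillar chains form rope-like fibrils, fibril-associated chains sit on their surface, and collagen IV chains form the sheet-like network of basement membranes. In the eye, collagens II, IX and XI are known as the fibril collagens of the vitreous, and Müller cells and astrocytes border the inner limiting membrane and the blood vessels, both of which contain collagen IV.

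The 15 libraries held 120437 barcodes, of which 119765 passed the limits on genes and mitochondrial UMIs (unique molecular identifiers, 1 per captured RNA molecule). A library held 13429873 to 50900459 UMIs after these limits. Libraries shared few barcodes, at most 0.422% of the smaller one. The processing notes name Cell Ranger 5.0.1 for 7 retinas and 7.0.1 for 8, with both versions in every stage, and the version was a term in the test. Median UMIs per barcode ran from 1461 to 3068 in these 7 retinas and from 2268 to 5611 in the 8. Version cannot be told apart from any other difference between the 2 sets of retinas. A nucleus was placed in a class by a likelihood over marker genes that hold no collagen. This placed 83750 nuclei in 13 classes, set 12.3% aside as mixtures of classes and left 17.8% unassigned. The classes were cones, rods, bipolar cells (BCs), horizontal cells (HCs), amacrine cells (ACs), retinal ganglion cells (RGCs), Müller cells, astrocytes, microglia, endothelial cells, mural cells, retinal pigment epithelium (RPE) cells and a group called FBLN1-high nuclei by its leading gene. Rods were gated on 5 genes, and NRL, a rod factor kept out of the gate, stood at 364 CPM (UMIs of a gene per 1000000 UMIs of the class) in rods and at 0.778 CPM in cones. The cone opsin OPN1SW, also kept out of the gate, went the other way, at 21.5 CPM in rods and 4.14 CPM in cones. The study lists SAG, a rod gate gene, as a marker of rods and of S-cones, the cones that express OPN1SW. SAG stood at 4410 CPM in rods and 95.6 CPM in cones. Whether the rod class holds S-cones was not tested, and values for rods below are those of this class. Of the markers kept out of the gate, the highest level fell in the labelled class for 4 of 4 in rods and in microglia, 2 of 3 in cones, 3 of 4 in BCs, 2 of 4 in RGCs and in Müller cells, 3 of 6 in ACs, 1 of 3 in HCs and 1 of 2 in astrocytes. In astrocytes AGT stood at 24.1 CPM and at 0.0601 CPM in Müller cells, while ALDH1L1 stood at 5.46 CPM and at 87 CPM in Müller cells. The fibroblast list gated the FBLN1-high nuclei, but DCN and LUM, which define fibroblasts, stood at only 2.91 and 0.582 CPM there, so no cell type name was given. All 328 FBLN1-high nuclei came from the 8 retinas of version 7.0.1 and 157 of them from the retina Mature 4. In whole-retina values, fewer cells of a type and less RNA per cell cannot be told apart.

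Together the collagen chains took 405055 of 445857418 UMIs, which is 0.0908%. Of the 45 chains, 42 had at least 1 UMI. Of these 42, 26 had 1000 UMIs or more and 5 had fewer than 100. COL15A1, COL16A1 and COL28A1 were at 0, which allows a level of up to 0.0067 CPM for each at 3 counts of the total. This limit holds for the plain symbols, and a numbered copy of COL28A1 held 69 UMIs. The chains of the fibrils of skin and tendon were nearly empty, with 59 UMIs for COL1A1, 168 for COL1A2 and 23 for COL3A1. The other low chains were COL6A5 with 17 UMIs, COL7A1 with 83, COL6A3 with 89, COL4A3 and COL11A2 with 111 each, and COL8A2 with 117. Between 100 and 1000 UMIs were also COL9A3 with 211, COL20A1 with 289, COL26A1 with 511, COL6A4 with 552, COL6A6 with 606, COL17A1 with 865 and COL23A1 with 988. In the retina as a whole 34 chains passed the filter on low counts, and 11 of the 45 passed it in no fit. UMIs are counted per gene and not per length, so levels below are compared for 1 chain between classes or stages and not between chains.

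Among the 9 classes that at least 14 retinas contributed to with 10 or more nuclei, the 26 chains with 1000 UMIs or more had their highest mean level in Müller cells for 11 chains, in astrocytes for 8, in rods, BCs and ACs for 2 each, and in cones for 1. For COL21A1 the highest class rests on 6 UMIs in rods, which led in 2 of 14 retinas, and for COL8A1 astrocytes led in 3 of 15. The choice of class was kept for 24 of the 26 chains with a stricter gate, for 21 when each nucleus went to the class of its highest score, and for 26 with nuclei of more than 500 genes. Levels are a description, since the classes come from the same libraries, and the highest class of a chain below means the highest of these 9. Nuclei in no class held 30.1% of the nuclei and 32.2% of all UMIs, but 77.3% of the UMIs of COL4A6, 72.3% of COL4A5 and 70.1% of COL21A1, so for these 3 chains the classes cover less than for most. These totals lean on 1 retina, Mature 4, with whole-retina levels of 106.4, 18.82 and 20.68 CPM. The medians over the 15 retinas were 5.52, 1.49 and 1.15 CPM.

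**Figure D1:**
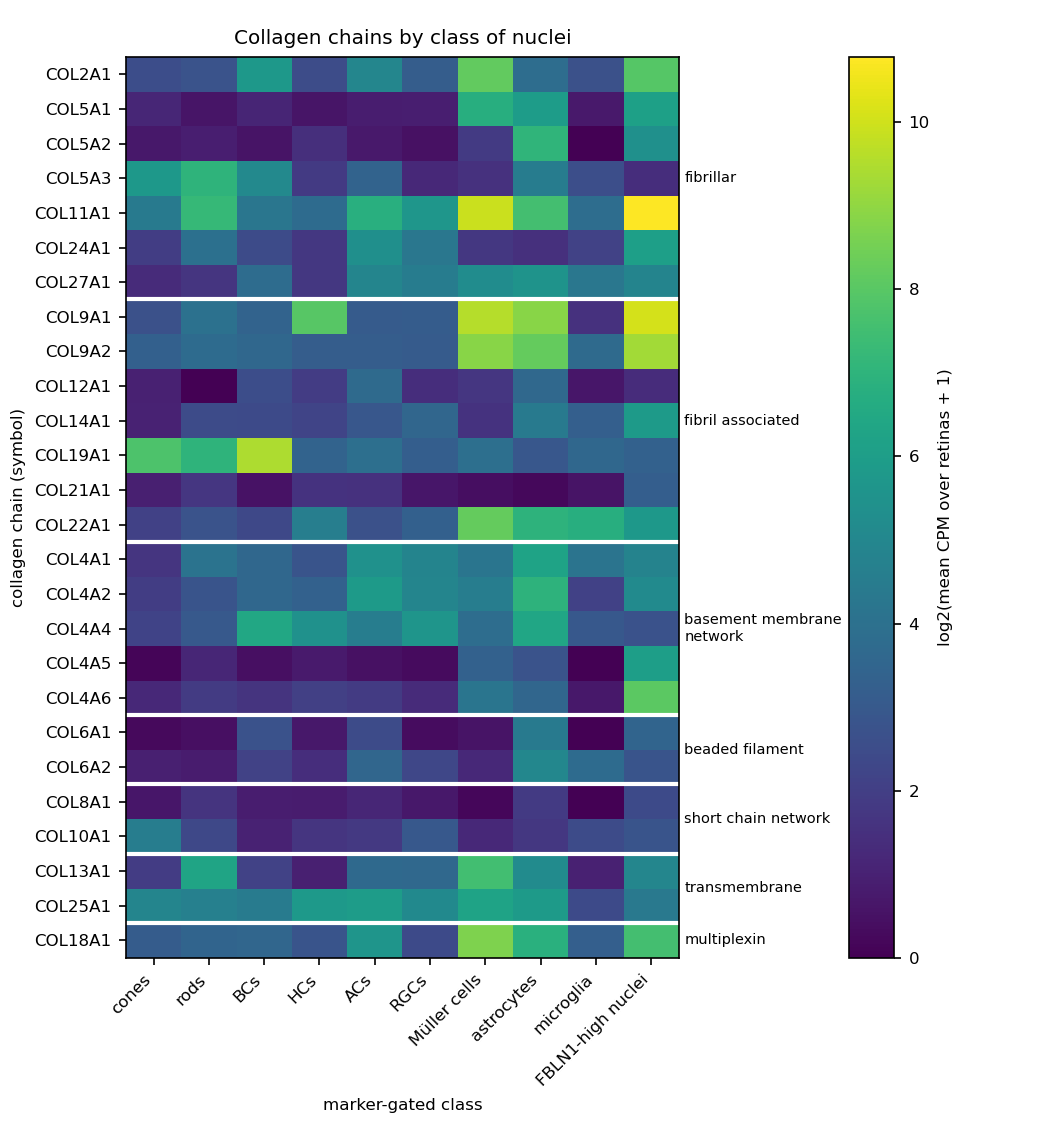
Mean level of the 26 collagen chains with 1000 UMIs or more (rows, grouped by family) in 10 classes of nuclei (columns). Colour is log2(mean CPM over retinas + 1). The Müller cell and astrocyte columns are bright for COL9A1, COL9A2 and COL11A1, and COL19A1 is bright in BCs.

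The fibril chains of the vitreous type COL2A1, COL9A1, COL9A2 and COL11A1 had their highest level in Müller cells, which held 37.8%, 65.9%, 66% and 45.2% of their UMIs in the classes. COL11A1, a minor fibrillar chain that helps set fibril width, stood at 973 ± 128 CPM (SD, n = 15) in Müller cells, against 187 ± 83.3 in astrocytes and 12.7 CPM in HCs, the lowest class. Of the 9 classes Müller cells were highest in 15 of 15 retinas. COL2A1, the chain of collagen II, the main vitreous fibril, stood at 289 ± 42.5 CPM in Müller cells, also the highest of the 9 classes in 15 of 15 retinas, and at 53.3 CPM in BCs. COL5A1, which nucleates fibrils, stood at 106 CPM in Müller cells and 60.8 CPM in astrocytes. COL5A2 stood at 132 ± 49.2 CPM in astrocytes and at 2.58 CPM in Müller cells, so these partner chains of collagen V differed in their class. COL5A3 was highest in rods, at 127 ± 33.4 CPM (SD, n = 14), and stood at 52.1 CPM in cones.

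COL9A1 and COL9A2 are chains of collagen IX, which decorates collagen II fibrils. COL9A1 stood at 755 ± 172 CPM in Müller cells, 460 ± 214 in astrocytes and 255 ± 67.2 in HCs, and at 1.91 CPM in microglia, the lowest class. COL9A2 stood at 461 ± 238 CPM in Müller cells and 299 ± 209 in astrocytes, but at 7.43 CPM in RGCs, the lowest class. Over the 13 classes COL9A1 and COL9A2 had a Pearson correlation of 0.96 and a Spearman correlation of 0.55, and COL9A1 and COL11A1 0.94 and 0.53, with classes from the same libraries. The same values were 0.66 and 0.37 for COL9A1 and COL9A3, 0.65 and 0.36 for COL6A1 and COL6A2, and 0.36 and 0.48 for COL5A1 and COL5A2. COL22A1, a fibril-associated chain of tissue junctions, stood at 301 ± 43.8 CPM in Müller cells and at 3.18 CPM in cones. COL12A1, a fibril-associated chain that links fibrils to their surroundings, was at 12.3 CPM in ACs and at 0 in rods. COL14A1, which regulates fibril growth, stood at 20.8 CPM in astrocytes and 1.06 CPM in cones. COL24A1 and COL27A1, fibrillar chains of cartilage and bone, stood at 40.7 CPM in ACs and at 45.3 CPM in astrocytes.

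COL19A1, a fibril-associated chain known from the synapses of the brain, stood apart by its class. In BCs it stood at 671, 781, 857, 637 and 721 CPM in the Infancy retinas, at 511, 724, 742, 638 and 795 CPM in the Mature ones and at 629, 602, 640, 955 and 702 CPM in the Senile ones. All 3 stages overlapped, and BCs were the highest class in 15 of 15 retinas. Its mean was 707 ± 110 CPM in BCs, 219.8 ± 38.5 CPM in cones and 6.63 CPM in astrocytes, and BCs held 76% of its UMIs in the classes. In BCs, COL4A4, a chain of the collagen IV of specialised basement membranes, stood at 87.2 ± 15.4 CPM, and its astrocyte mean was 81.2 CPM. That astrocyte mean leans on Mature 4, at 331.7 CPM from 13 UMIs, against 28.6 to 119 CPM in the other retinas. BCs were its highest class in 11 of 15 retinas. COL10A1, a short network chain known from growth cartilage, was highest in cones, at 22.7 ± 13.6 CPM.

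The common collagen IV chains COL4A1 and COL4A2 are secreted together. COL4A2 stood at 124 ± 44.6 CPM in astrocytes, 57.7 ± 15.7 in ACs and 28.8 ± 10.1 in RGCs, and at 2.84 CPM in cones. COL4A1 stood at 75.5 CPM in astrocytes and 43.2 ± 7.33 in ACs, with cones lowest again, at 2.17 CPM. Their Pearson correlation over the 13 classes was 0.90 (Spearman 0.97), while that of COL4A3 and COL4A4 was -0.17 (Spearman 0.27), where COL4A3 held only 111 UMIs. The 13 classes include the small mural and RPE classes. COL4A3 and COL4A4 both had their highest level in BCs, which held 76.7% and 56.3% of their UMIs in the classes. For COL4A3 this was a near tie on 73 UMIs in the classes, at 0.7645 CPM in BCs and 0.735 CPM in HCs. BCs were highest for it in only 7 of 15 retinas. COL18A1, the chain that carries endostatin, stood at 416 ± 51.5 CPM in Müller cells, highest in 15 of 15 retinas, and at 4.32 CPM in RGCs. COL13A1, a membrane-spanning chain of cell junctions, stood at 184 ± 58.5 CPM in Müller cells and 76.7 ± 43.1 in rods. COL25A1, a membrane-spanning chain needed for motor innervation, showed no such separation, with 75.7 CPM in Müller cells and 61.6 ± 13.3 in ACs, and Müller cells were highest in only 7 of 15 retinas.

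COL6A1 and COL6A2, chains of the beaded filaments that surround cells, stood at 20.9 and 31.1 CPM in astrocytes, each higher there than in the other classes. COL4A5 and COL4A6, which share a basement membrane network, stood at 9.20 and 17.2 CPM in Müller cells and correlated at 0.82 (Pearson) and 0.79 (Spearman) over the 13 classes. These 13 include the FBLN1-high nuclei, where COL4A5 ran from 27.4 to 142 CPM and COL4A6 from 69.0 to 419 CPM over 8 retinas.

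The vessel and pigment classes were too small to test, with 72 endothelial cells, 66 mural cells and 29 RPE cells. Over all retinas together, mural cells held 168 UMIs of COL4A4, which is 1692 CPM, and 81 of COL8A1, a short network chain of vessel walls and of Descemet membrane, which is 816 CPM. RPE cells held 255 UMIs of COL8A1, which is 2001 CPM, and endothelial cells 47, which is 422 CPM. These values rest on few nuclei and have no error over retinas. The FBLN1-high nuclei, from 8 retinas, held COL11A1 at 1761 ± 517 CPM (SD, n = 8), COL9A1 at 1084 ± 230 CPM and COL4A6 at 267 ± 118 CPM. In these 8 retinas they stood above Müller cells for COL11A1 and COL9A1 in 8 of 8 and for COL2A1 in 3 of 8, and for COL18A1 and COL13A1 in 0 of 8.

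**Figure D2:**
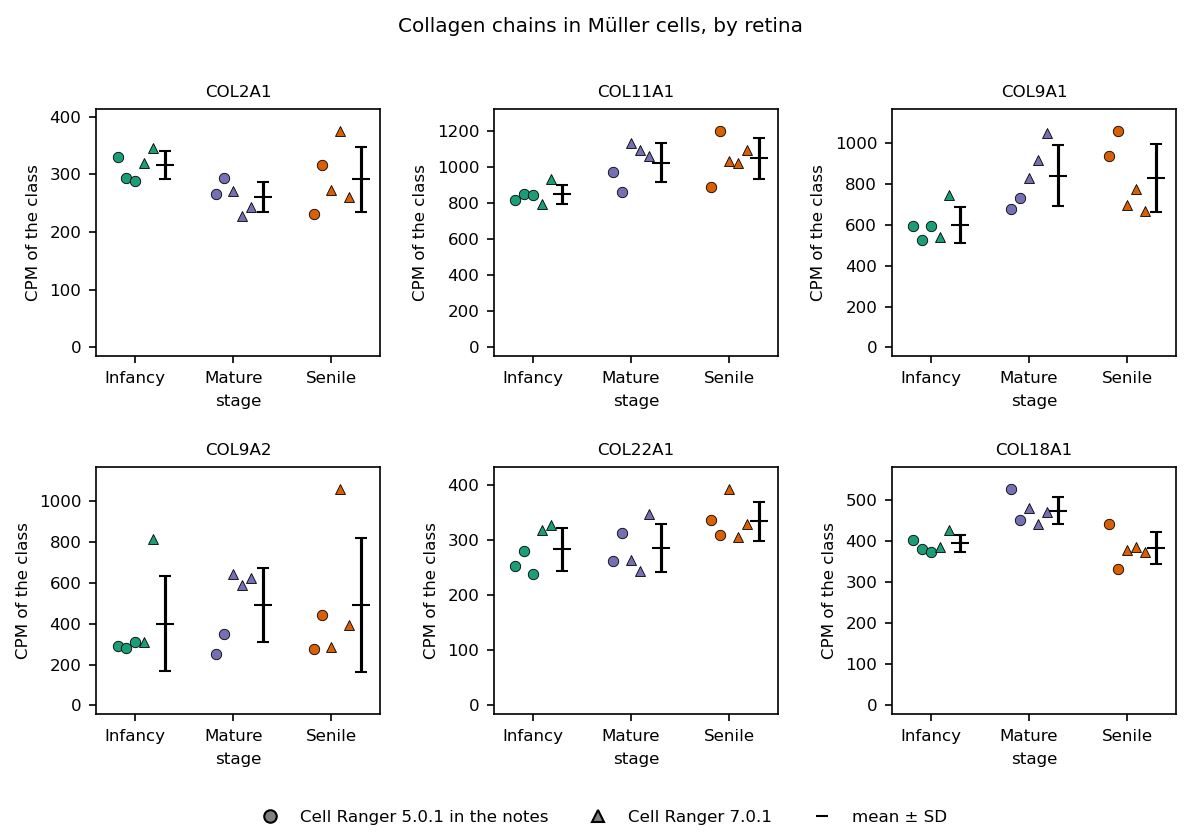
CPM of 6 chains in Müller cells (vertical axes) by stage (horizontal axes). Each point is a retina, circles are retinas with Cell Ranger 5.0.1 in the notes and triangles those with 7.0.1, and bars are mean ± SD over 5 retinas. The COL11A1 points of the Infancy retinas run from 794 to 931 CPM and overlap with both later stages.

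In Müller cells COL11A1 stood at 816, 851, 846, 794 and 931 CPM in Infancy, at 970, 862, 1133, 1092 and 1058 CPM in Mature and at 889, 1200, 1031, 1024 and 1094 CPM in Senile. COL9A1 stood at 591, 525, 592, 541 and 747 CPM, at 677, 729, 829, 916 and 1049 CPM and at 934, 1059, 698, 775 and 668 CPM in the same order. Infancy held the lowest retina of both chains, and the stages overlapped for both.

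To ask whether a chain differed between stages, raw UMIs were summed per retina, for all nuclei and for each class, and tested with edgeR's quasi-likelihood test over all features, with Benjamini-Hochberg adjustment and adjusted p under 0.05 as the threshold. The 3 comparisons share retinas, and their values stand side by side. In the retina as a whole 0 of 34 chains passed in Mature against Infancy, where 0.994% of all features did, 0 of 34 in Senile against Infancy, where 1.64% did, and 0 of 34 in Senile against Mature, where 0% did. At an unadjusted p under 0.05 the counts were 1, 8 and 11 of the 34 chains, which is 2.94%, 23.5% and 32.4%, against 12.3%, 11.2% and 9.69% of all features tested. DESeq2 called 1, 1 and 0 chains, and 2.55%, 2.91% and 0.697% of all features. The median log2 fold change of the chains was 0.20, -0.20 and -0.34, against -0.02, -0.01 and 0.03 over all features tested. The chains share retinas, so these shares and medians are not over independent chains. The retina Mature 4 held the highest level of many of them, such as COL4A6 at 106.4 CPM, where the median retina stood at 5.52 CPM. The part of Mature 4 in the shares and medians was not tested.

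Within the classes, 120 chain and class pairs were tested in each comparison. In Senile against Infancy 4 pairs passed edgeR's test, and 0 passed in Mature against Infancy and in Senile against Mature. An unadjusted p under 0.05 was reached by 30 of the 120 pairs in Senile against Infancy (25%), by 16 in Mature against Infancy (13.3%) and by 13 in Senile against Mature (10.8%). Over all features of the same class fits the shares were 9.45%, 10.9% and 9.05%. DESeq2 called 3 pairs in Mature against Infancy, 6 in Senile against Infancy and 1 in Senile against Mature, and 2%, 2.14% and 0.421% of all features of these fits. Senile against Infancy gave 1 of 12 chains in astrocytes, where 0.524% of all features passed, 1 of 19 in BCs with 1.31%, 1 of 4 in rods with 3.3% and 1 of 21 in ACs with 1.42%. It gave 0 of 15 in cones with 2%, 0 of 3 in HCs with 0.363%, 0 of 18 in RGCs with 1.19%, 0 of 16 in Müller cells with 1.55% and 0 of 12 in FBLN1-high nuclei with 0.475%, and no chain was tested in microglia, where 0.797% passed. In Mature against Infancy the share of all features that passed was 1.4% in cones, 0.462% in rods, 0.93% in BCs, 0.136% in HCs, 0.746% in RGCs, 1.01% in ACs, 0.183% in astrocytes, 1.09% in Müller cells, 0.266% in microglia and 0.175% in FBLN1-high nuclei. In Senile against Mature it was 0.00692% in cones, 0.0925% in rods, 0.0399% in BCs, 0.0454% in HCs, 0.0706% in Müller cells and 0% in ACs, RGCs, astrocytes, microglia and FBLN1-high nuclei. Each class with a call held 1 called chain.

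**Figure D3:**
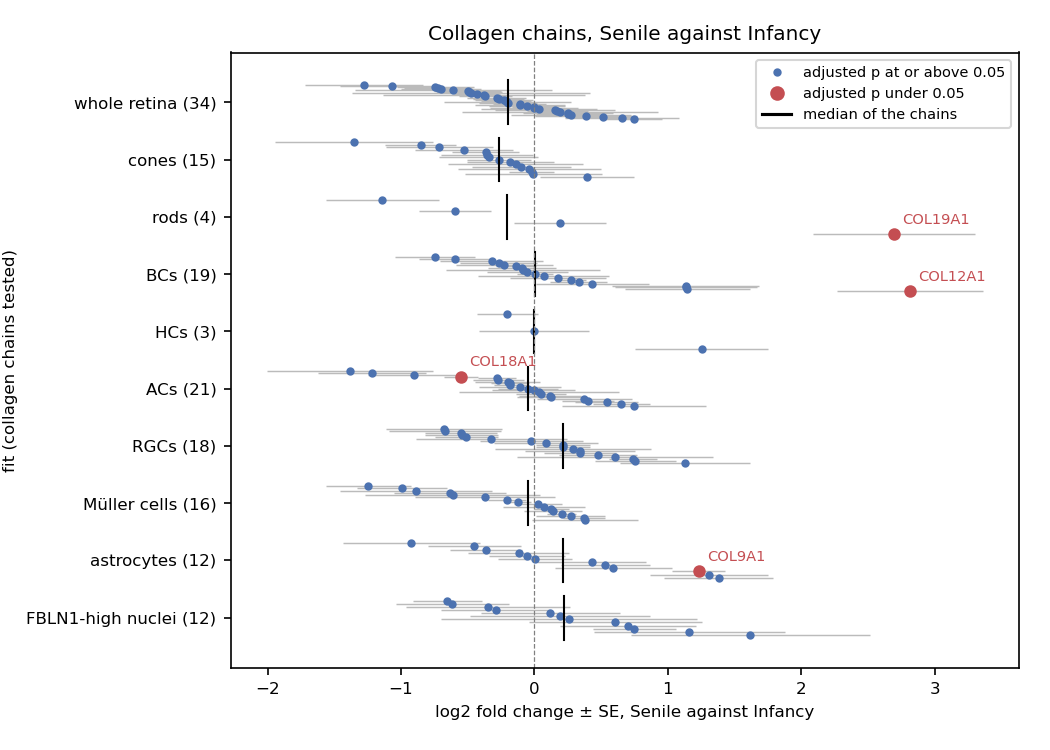
log2 fold change ± SE of every tested chain, Senile against Infancy (horizontal axis), in the whole retina and in 9 classes (rows, with the number of chains tested). Red points passed the test, blue points did not, and black bars are the median of the chains. The whole-retina median is -0.20, and 4 pairs passed.

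COL9A1 rose in astrocytes. It stood at 254, 167, 218, 222 and 281 CPM in the Infancy retinas, at 349, 296, 541, 689 and 667 CPM in the Mature ones and at 710, 457, 647, 775 and 633 CPM in the Senile ones. All 5 Senile retinas lay above all 5 Infancy ones, and the Mature ones overlapped with the Senile. The log2 fold change, Senile against Infancy, was 1.23 ± 0.20 (SE), with an adjusted p of 0.00407 in edgeR. Within the retinas of version 5.0.1 it was 1.31 and within those of 7.0.1 it was 1.30, and neither passed alone. Mature against Infancy gave 0.85 ± 0.20, adjusted p = 0.0979 in edgeR. The 5 Müller cell gate markers, summed within astrocytes, stood at a median of 1085 CPM in Infancy (908 to 1208), 1189 CPM in Mature (986 to 1592) and 1322 CPM in Senile (802 to 1760), none of them at 0, with stages overlapping. In Müller cells themselves the same markers summed to a median of 8793, 6649 and 6365 CPM. SLC1A3 and GLUL made up most of the sum in astrocytes, at 926 and 104 CPM, against 2280 and 301 CPM in Müller cells. RLBP1, TF and WIF1 stood at 51.4, 49.5 and 9.97 CPM in astrocytes and at 1040, 1570 and 1060 CPM in Müller cells. In Müller cells COL9A1 stood at 599 ± 88.0 CPM in Infancy and 827 ± 166 in Senile (SD, n = 5 each), which did not pass. Cone markers in astrocytes stood at a median of 102 CPM in Infancy (56.6 to 251) and 256 CPM in Senile (152 to 435), and RPE markers at 3.77 CPM (0 to 8.50) and 24.4 CPM (0 to 34.9), with overlapping ranges. COL9A1 stood at 5.37 CPM in cones. The part of RNA from these classes in the astrocyte difference was not tested.

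The partner chain COL9A2 stood at 119 ± 56.4 CPM in Infancy and 401 ± 196 CPM in Senile astrocytes (SD, n = 5 each), with all Senile retinas above all Infancy ones, but its adjusted p was 0.172 in edgeR. The astrocyte chain COL27A1 stood at 18.9 ± 11.5 CPM and 59.7 ± 15.7 CPM, with an adjusted p of 0.278 in edgeR. COL5A2 in astrocytes, the chain with the clearest astrocyte level, stood at 148 ± 53.1 CPM in Infancy, 114 ± 44.1 in Mature and 135 ± 54.5 in Senile.

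**Figure D4:**
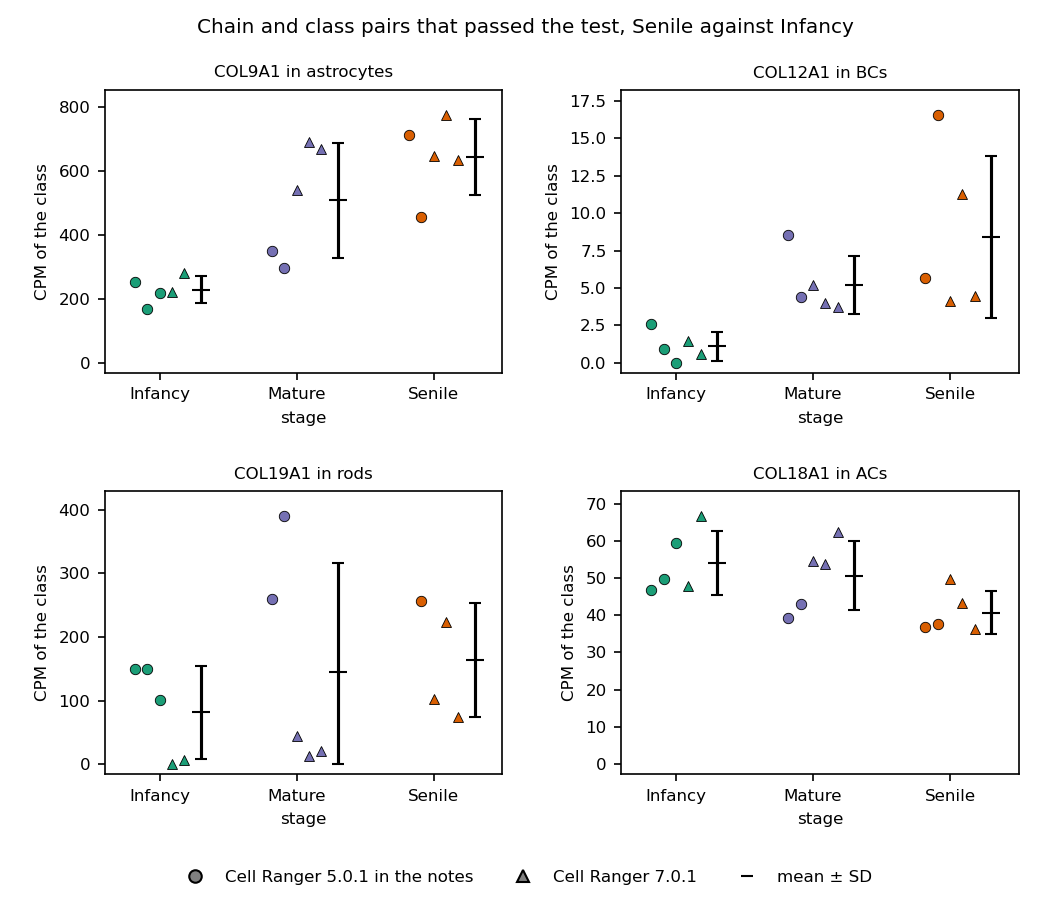
CPM of the 4 chain and class pairs that passed in Senile against Infancy (vertical axes) by stage (horizontal axes). Each point is a retina, circles and triangles are Cell Ranger 5.0.1 and 7.0.1 in the notes, and bars are mean ± SD, cut at 0. The COL19A1 panel shows the triangles of the Infancy and Mature retinas below the circles, and COL9A1 in astrocytes runs from 167 to 281 CPM in Infancy and from 457 to 775 CPM in Senile.

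COL12A1 rose in BCs from a very low level. It stood at 2.59, 0.887, 0, 1.43 and 0.59 CPM in the Infancy retinas, at 8.56, 4.41, 5.21, 4.02 and 3.75 CPM in the Mature ones and at 5.68, 16.6, 4.12, 11.3 and 4.44 CPM in the Senile ones. The Infancy retinas lay below all others, and the Mature and Senile ones overlapped. Infancy BCs held 29 UMIs of COL12A1 in all, so its fold is imprecise. The log2 fold change, Senile against Infancy, was 2.81 ± 0.55 with an adjusted p of 0.0114 in edgeR, and Mature against Infancy gave 2.23 ± 0.53 with 0.0588. Within the retinas of version 5.0.1 and of 7.0.1 it was 2.90 and 2.68, neither passing. AC gate markers, summed within BCs, stood at a median of 174 CPM (125 to 195) in Infancy, 215 CPM (171 to 269) in Mature and 263 CPM (160 to 468) in Senile, and cone markers at 140, 194 and 340 CPM, with 0 of either list at 0. HC markers in BCs stood at 27.8 to 31.1 CPM in Infancy and at 39.6 to 51.5 CPM in Senile, so for this list the stages did not overlap. Most of that sum was ONECUT2, at 30.7 CPM in BCs, with MEGF11 at 5.95, ONECUT1 at 2.05 and LHX1 at 0.0821 CPM. COL12A1 itself stood at 2.82 CPM in HCs. The part of these in the result was not tested. In the retina as a whole COL12A1 stood at 5.44 ± 0.72 CPM in Infancy and 9.62 ± 1.74 CPM in Senile (SD, n = 5 each), where the adjusted p was 0.133 in edgeR and 0.0374 in DESeq2.

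COL19A1 rose in rods in the test, and the call was lost without the version term. Rods held 14 retinas, since Senile 1 had only 3 rod nuclei. COL19A1 stood at 150, 149, 100, 0 and 6.64 CPM in Infancy, at 260, 390, 44.2, 13.3 and 19.9 CPM in Mature and at 256, 102, 224 and 74.6 CPM in Senile. All stages overlapped, and within a stage the retinas of version 7.0.1 were the low ones in Infancy and Mature. The log2 fold change, Senile against Infancy, was 2.69 ± 0.61 with an adjusted p of 0.0208 in edgeR, but 1.30 with an adjusted p of 0.731 without the version term. Within version 5.0.1 it was 0.88, from 1 Senile retina, and within 7.0.1 it was 4.90. With each nucleus in its highest-scoring class it was 0.64, adjusted p = 0.481 in edgeR, and over the retinas left out one at a time it ran from 1.86 without Senile 4 to 4.00 without Senile 2. The call was lost without Senile 4 (adjusted p = 0.129 in edgeR) and without Infancy 5 (0.0523). The 2 Infancy retinas of version 7.0.1 held only 0 and 3 UMIs of COL19A1 in rods. The level in BCs is 707 CPM and the summed BC gate markers in rods had a median of 282 CPM in Infancy and 319 CPM in Senile, with overlapping ranges (202 to 562 and 119 to 467) and 1 of the 7 markers at 0. The cone markers in rods stood at 630 CPM (292 to 964) in Infancy and 1290 CPM (650 to 1775) in Senile, with 0 of 6 at 0. The part of these in the result was not tested. COL13A1 in rods stood at 70.2 ± 28.6 CPM in Infancy (SD, n = 5), 112 ± 39.6 in Mature (n = 5) and 40.7 ± 31.7 in Senile (n = 4). Its edgeR log2 fold change, Senile against Mature, was -1.57 with an adjusted p of 0.104.

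COL18A1 fell in ACs by 0.55 ± 0.13 (SE) on the log2 scale in Senile against Infancy, with an adjusted p of 0.0352 in edgeR. It stood at 46.7, 49.7, 59.4, 47.8 and 66.6 CPM in Infancy, at 39.3, 43.1, 54.5, 53.7 and 62.3 CPM in Mature and at 36.8, 37.8, 49.6, 43.2 and 36.2 CPM in Senile. The Senile retinas were mostly the lowest, with 1 of 5 inside the Infancy range. The adjusted p rose to 0.13 without the version term, to 0.216 with the replicate block and to 0.387 with a stricter gate, and leaving out 10 of the 15 retinas one at a time took it above 0.05, to at most 0.147 without Infancy 5. Müller cell gate markers in ACs, where COL18A1 is high in Müller cells, stood at a median of 75.3 CPM in Infancy (72.9 to 102) and 110 CPM in Senile (53.7 to 155) with overlapping ranges and 0 of 5 at 0. Their part in the result was not tested. Cones held 10.4 ± 3.45 CPM of COL18A1 in Infancy and 7.21 ± 2.94 CPM in Senile, which did not pass. Mature cones held 6.06 ± 2.90 CPM, with a log2 fold change against Infancy of -1.01 ± 0.26. The adjusted p of that comparison was 0.0784 in edgeR and 0.0173 in DESeq2.

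The chain nearest to the threshold was COL11A1 in RGCs, with 34.0 ± 7.12 CPM in Infancy and 61.2 ± 6.14 CPM in Senile (SD, n = 5 each). The RGCs of all 5 Senile retinas lay above those of all 5 Infancy ones, the log2 fold change was 0.74 ± 0.18, and the adjusted p was 0.0518 in edgeR and 0.00647 in DESeq2. In Müller cells COL25A1 stood at 101 ± 28.3 CPM in Infancy and 50.8 ± 33.1 CPM in Senile, log2 fold change -1.24 ± 0.32, adjusted p = 0.0668 in edgeR and 0.0175 in DESeq2. It passed edgeR's test without Senile 2 (adjusted p = 0.0178) and without Senile 3 (0.0129). COL4A6 in Müller cells was 24.9 ± 10.1 CPM in Mature and 9.16 ± 4.57 CPM in Senile, adjusted p = 0.103 in edgeR. COL4A4 in HCs stood at 16.3 ± 9.79 CPM in Infancy, 68.7 ± 31.8 in Mature and 41.6 ± 23.9 in Senile. Its edgeR adjusted p was 0.18 in Mature against Infancy and 0.514 in Senile against Infancy. Other pairs that were largest in size in their class were COL6A1, COL6A6 and COL6A2 in ACs, at -1.38, -1.22 and -0.91 on the log2 scale, COL4A2 in cones at -1.35, COL11A1 and COL9A1 in BCs at 1.15 and 1.13, and COL9A1 in RGCs at 1.13. COL5A2 in FBLN1-high nuclei stood at 1.62 on that scale. None of these passed.

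In the whole retina, COL4A1 stood at 25.9, 23.5, 23.2, 29.4 and 34.6 CPM in Infancy, at 26.6, 23.1, 18.4, 77.7 and 26.4 CPM in Mature and at 17.4, 16.2, 16.9, 18.2 and 21.4 CPM in Senile. All 5 Senile retinas lay below all 5 Infancy ones, and the Mature group held 1 retina far above. The edgeR adjusted p was 0.332 in Senile against Infancy, and without Mature 4 COL4A1 passed, with a log2 fold change of -0.70 and an adjusted p of 0.02. The log2 fold change with all retinas was -0.74 ± 0.29 and within versions 5.0.1 and 7.0.1 it was -0.65 and -0.75.

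**Figure D5:**
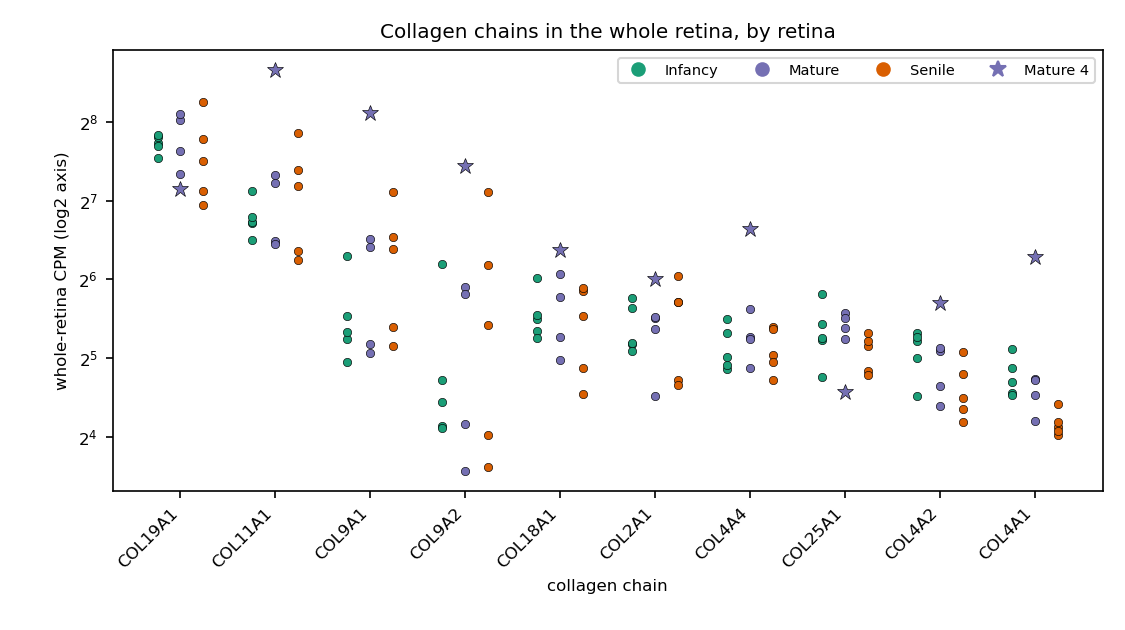
Whole-retina CPM (log2 axis) of the 10 chains with the highest mean level, by stage. Each point is a retina, and the star is Mature 4. Mature 4 is the highest retina for COL11A1, COL9A1, COL9A2, COL18A1, COL4A4, COL4A2 and COL4A1.

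Of the genes that act on collagens, the fits were read for 4 lists. In the whole retina 0 of 27 tested assembly enzymes and chaperones, 0 of 9 collagen receptors, 0 of 12 genes of collagen breakdown and 0 of 13 basement membrane partners of collagen IV passed in each comparison. Over the class fits 2 of 245 gene and class pairs passed, both of the assembly list (110 pairs) and both in Senile against Infancy, where 1.55% of all features passed in Müller cells and 3.3% in rods. COLGALT2, which adds galactose to collagen, fell in Müller cells by 0.98 ± 0.20 (SE) on the log2 scale, from 157 ± 26.5 to 86.0 ± 22.8 CPM (SD, n = 5 each), with an adjusted p of 0.0125 in edgeR. Within Müller cells, the Müller cell markers stood at a median of 8793 CPM in Infancy (4330 to 9481) and 6365 CPM in Senile (5239 to 8804), astrocyte markers at 747 CPM (381 to 818) and 454 CPM (406 to 578), and cone markers at 128 CPM (83.1 to 242) and 252 CPM (133 to 504). All 3 lists overlapped between the stages, none of their markers was at 0, and their part in the result was not tested. P3H3, a prolyl 3-hydroxylase family member, rose in rods, at 331 ± 244 CPM in Infancy (n = 5) and 691 ± 681 CPM in Senile (n = 4). Its fitted log2 fold change was 2.17 ± 0.52, with an adjusted p of 0.0254 in edgeR, in a fit with the version term, and is larger than the ratio of these means. P3H3 stood at 2705 ± 669 CPM in cones (SD, n = 15), and the cone markers in rods given above stood higher in Senile retinas by median. Their part in the P3H3 result was not tested. In Müller cells 12 genes of the assembly list were tested, in rods 4.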

How the data were processed

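Retinal nuclei of 15 TSs were sequenced on the 10x Genomics platform and mapped to the TS_3.0 build. The deposited values are raw counts of UMIs for each gene in each barcode, not normalized. The processing notes name Cell Ranger 5.0.1 for 7 retinas, whose file headers give 6.1.2, and 7.0.1 for 8; intron counting is not stated. The labels give the v2 kit and the methods another. Sex is not in the labels and was left out.

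Barcodes needed over 200 but below 6000 detected genes, and a mitochondrial UMI share below 5%. A nucleus entered a class when its marker likelihood was 20 times that of the next class, and was set aside as a likely doublet or as free RNA when a mixture of 2 classes was 100 times as likely. Where a marker has numbered copies, the most abundant feature was used, a departure from the planned plain symbol. The study's own cell annotation was not used here. UMIs were summed per retina and class (10 nuclei or more) and tested with edgeR 4.0.16 in R 4.3.3 (TMM, filterByExpr, stage and Cell Ranger version, all stages in 1 fit); DESeq2 1.42.0 was an alternative. CPM is per 1000000 UMIs of the class. SE was taken from the log2 fold change and the F statistic. The fits were also run on simulated counts with known fold changes. These counts held no version effect, so they do not bear on the version term, and no conclusion is drawn from them.

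Named chains are those called in any fit, the 5 highest per class, the 3 with the largest senile change per class and the 10 highest in the whole retina. Members and lists were chosen with earlier results of these data known. The files give no coordinates, and 42 of the 45 symbols are in RefSeq for the TupChi_1.0 assembly, a build other than that of the files. No sequence or coordinate is printed. SDs and SEs are over retinas, and the limit for a chain at 0 covers counting error only. The closing section names the alternatives.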

Additional observations from a re-analysis of the deposited data

Results flagged for a closer look

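In the whole retina, Mature 4 stood far from the other 4 Mature retinas for 4 of the chains examined. It held COL11A1 at 401.8 CPM against 87.5 to 160 in the others, COL9A1 at 275.8 CPM against 33.5 to 91.0, COL4A4 at 99.93 CPM against 29.3 to 49.1 and COL4A1 at 77.73 CPM against 18.4 to 26.6. Nuclei in no class held 69.7%, 69.9%, 72% and 71.7% of the UMIs of these chains in Mature 4, and without the FBLN1-high and RPE nuclei the values were 378, 262, 102 and 78.6 CPM. Infancy 5 held COL9A2 at 73.5 CPM against 17.3 to 26.4 in the other Infancy retinas, with 50.2% of its UMIs in Müller cells. These are 5 of 42 groups of retinas examined. The limit used is passed by chance in about 1 in 20 groups, but 4 of the 5 are the same retina, so the groups are not independent. Mature 4 also stood far above the other Mature retinas for chains not listed here. It held COL4A6 at 106.4 CPM against 1.62 to 6.26, COL4A5 at 18.82 CPM against 0.471 to 1.80 and COL21A1 at 20.68 CPM against 0.570 to 0.929.

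COL9A1 had a log2 fold change of 0.85 in astrocytes and -0.46 in FBLN1-high nuclei in Mature against Infancy, and of 1.23 and -0.65 in Senile against Infancy, with every retina of the later stage on the same side in each class. Of these 4 values only the astrocyte one in Senile against Infancy passed edgeR's test, and the FBLN1-high fit had 2 Infancy, 3 Mature and 3 Senile retinas. The difference between the classes was not tested. In FBLN1-high nuclei, markers of other classes stood without overlap between Infancy and Senile, with cone markers at 113 to 178 and 379 to 519 CPM, RPE markers at 27.0 to 41.1 and 142 to 471 CPM and AC markers at 356 to 556 and 710 to 1276 CPM. Their part in the COL9A1 values was not tested.

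Outside the members, the 92 antisense features of collagen genes held 18766 UMIs and the 8 numbered copies of collagen symbols held 15394 UMIs, of which COL25A1li1 held 10591 and COL23A1li1 4033. Antisense features held 2617 UMIs for COL4A3, where the chain held 111, and 24 for COL15A1, where the chain held 0. They held 4757 for COL9A1 and 3548 for COL11A1. How reads were divided between a chain and its copy or antisense partner is not stated. The levels of these chains and of COL25A1, COL23A1 and COL28A1 are uncertain in that respect.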

How the results depend on the processing

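Depth limits the low chains: 11 of the 45 were tested in no fit, and 3 chains were tested in HCs, 4 in rods and 0 in microglia. None of the 4 called chain and class fold changes reversed under the alternatives run, which did not cover COLGALT2 and P3H3. COL9A1 in astrocytes passed in 22 of 24 alternatives and COL12A1 in BCs in 21 of 23, missing in the fits of 1 Cell Ranger version alone. COL19A1 in rods passed in 15 of 22 and COL18A1 in ACs in 8 of 24. The stricter gate gave no test of COL12A1 in BCs or of COL19A1 in rods, so it is not among their alternatives. The causes were not tested.

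In parentheses is the share of all features called in the same setting. In the whole retina, where 0 chains passed, DESeq2 called 1 chain, COL12A1, in Mature against Infancy (2.55%) and 1, again COL12A1, in Senile against Infancy (2.91%). The retinas of 5.0.1 alone gave 2 in Senile against Infancy (2.21%), COL6A2 and COL4A2. Leaving out 1 retina at a time gave 0 to 1 there (1.2% to 1.8%), with COL4A1 called without Mature 4 (1.8%). Of chain and class pairs in Mature against Infancy, where 0 passed (0.888%), DESeq2 called 3 (2%), no filter on low counts 6 of 371 (0.765%), 5.0.1 alone 1 (1.19%), the stricter gate 1 (0.863%) and the highest score 1 (0.812%), with 0 to 1 when a retina was left out. In Senile against Infancy, where 4 passed (1.41%), no filter gave 11 of 371 (0.947%), no version term 2 (0.942%), the replicate block 2 (0.952%), 5.0.1 alone 1, COL9A1 in Müller cells (1.4%), 7.0.1 alone 0 (0.398%) and the stricter gate 1 (1.3%), with 2 to 5 when a retina was left out. In Senile against Mature, where 0 passed (0.022%), DESeq2 called 1 (0.421%), no filter 2 (0.336%) and the highest score 1 (0.0407%), with 0 to 1 when a retina was left out. With a retina left out, the class fits called 0.537% to 1%, 1.13% to 1.56% and 0.0091% to 0.0361% of all features, in the order given. Leaving out the FBLN1-high and RPE nuclei, chosen after seeing the data, left the whole-retina count at 0.

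Retinas of different stages with the same version and the same replicate number correlated at -0.33 to 0.51. Those of the same version with different numbers correlated at -0.30 to 0.71, so these values showed no pairing by replicate number. With the replicate block COL9A1 in astrocytes had a log2 fold change of 1.28 (adjusted p = 0.0227 in edgeR) and COL12A1 in BCs 2.58 (0.0252), while COL19A1 in rods (0.111) and COL18A1 in ACs (0.216) did not pass.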

Other observations

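Some genes that make, bind or anchor collagen are given here as levels without a test, chosen after their values were seen. TLL1, a protease of the family that trims procollagen, stood at 2457 ± 402 CPM in HCs (SD, n = 15) and at 221 CPM in Müller cells, the next class. PLOD2, which hydroxylates collagen lysines for crosslinking, stood at 690 ± 129 CPM in Müller cells and 205 CPM in astrocytes. ADAMTS3, which removes procollagen ends, stood at 217 ± 69.2 CPM in cones and 26.0 CPM in rods. SERPINH1, the collagen chaperone HSP47, stood at only 15.4 ± 12.5 CPM in Müller cells, its highest class.

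LAMA4, a laminin chain of basement membranes, stood at 865 ± 89.0 CPM in RGCs and 22.9 CPM in ACs, the next class. LAMA1, a laminin chain of the inner limiting membrane, stood at 126 ± 25.6 CPM in Müller cells, and NID2, which links laminin to collagen IV, at 65.2 ± 30.3 CPM in astrocytes. The collagen receptor DDR2 stood at 65.6 ± 30.1 CPM in astrocytes and 4.22 CPM in RGCs. MRC2, a receptor for collagen uptake, stood at 602 ± 229 CPM in microglia.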
